A study of Homo sapiens with 22 samples.

Results

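Binding sites of JUN and of FOSL1, both subunits of AP-1, were compared in PC3 cells that had been transfected with a control siRNA (siNC). PC3 is a human prostate cancer line from a bone metastasis. ChIP-seq, in which an antibody pulls down a protein with its DNA for sequencing, gave 1 list of enriched regions for each factor, with 23890 regions for JUN and 3843 for FOSL1. Each region carries a score for its enrichment, used here only to rank regions within a list. Regions that were overlapped in at least 17 of the 22 lists of the series, whatever the factor or cell line, are called shared places and were removed (386 JUN and 395 FOSL1 regions). At that limit, 101 JUN and 98 FOSL1 regions lay in exactly 17 lists and were removed, and 137 JUN and 125 FOSL1 regions in 16 lists stayed. This left 23504 JUN and 3448 FOSL1 regions, 26952 of the 871377 regions in the series.

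A region was placed in a class by whether it overlapped a region of the other list by at least 1 bp. The class called both held 2171 JUN regions, which met 2183 FOSL1 regions. JUN-only held 21333 JUN regions and FOSL1-only held 1265 FOSL1 regions. The classes were then compared with further lists from PC3: ATAC-seq for accessible chromatin, the active histone mark H3K27ac and FOXA2, all labelled vehicle, and JUN and FOSL1 after an siRNA against FOXA2 (siFOXA2). A further pair of FOXA2 ChIPs in vehicle-treated PC3 cells, whose antibody the labels do not name, served as other FOXA2 lists. JUN lists of NCI-H660, a neuroendocrine prostate cancer line, and of LNCaP, a luminal line, both under siNC, and a FOXA2 list of LNCaP cells overexpressing FOXA2 (LNCaP_FOXA2OE, vehicle) were used as well. H3K27ac lay at the starts of VIM, CD44, AXL, ZEB1 and YAP1 (5 of 5 mesenchymal or stem-like markers) and of KRT8 and KRT18 (2 of 2 keratins). It lay at 1 of 5 neuroendocrine genes (SYP).

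With 1 list per factor there is no replicate, so no test between the factors was possible. Shares are given with Wilson 95% intervals and differences between shares with Newcombe 95% intervals, which cover counting error only, and regions are not replicates. The lists hold no read numbers, so the depth behind the JUN and FOSL1 lists is unknown, and the absence of a region does not show the absence of binding. In a cell population, binding in fewer cells and weaker binding per cell cannot be told apart. The labels name the same antibody maker for both factors, whereas the study's methods name another maker for FOSL1. The region names place the JUN and FOSL1 lists in different processing folders, so folder, antibody and factor cannot be told apart.

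AP-1 is a family of dimers of basic leucine zipper proteins. JUN can pair with itself or with a FOS family protein, whereas FOSL1 (also called FRA-1) does not form stable homodimers and binds DNA with a JUN family partner. The dimers recognise the TPA response element, TGACTCA or its reverse complement TGAGTCA, and some of them the closely related cyclic AMP response element (CRE), TGACGTCA. In epithelial cancers AP-1 occupies many distal enhancers, often beside other factors such as the TEAD proteins or forkhead pioneer factors.

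The sites printed here show the DNA on which the comparison rests. They come from the highest-ranked accessible regions of each class that hold an AP-1 motif within 100 bp of the region's centre, with 3 lines for both, 3 for JUN-only and 2 for FOSL1-only. The CRE lines come from the 2 highest-scoring accessible JUN-only regions with a CRE motif and no AP-1 motif. All are the plus strand of the hg19-equivalent reference, with 30 bases on each side of the motif nearest to the centre, which is in capitals. The first is intergenic and 43008 bp from NRP1, the second lies at a promoter within NRP1 and the third in an intron of KCNMA1.
both, near NRP1, chr10:33423146-33423212: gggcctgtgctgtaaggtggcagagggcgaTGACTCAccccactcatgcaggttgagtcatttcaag
both, in NRP1, chr10:33553314-33553380: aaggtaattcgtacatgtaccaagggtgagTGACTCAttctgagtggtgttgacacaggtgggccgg
both, in KCNMA1, chr10:79110605-79110671: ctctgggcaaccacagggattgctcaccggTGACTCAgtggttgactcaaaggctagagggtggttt
JUN-only, 593293 bp from JAG1, chr20:11248098-11248164: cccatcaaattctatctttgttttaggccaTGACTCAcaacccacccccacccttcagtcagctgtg
JUN-only, in an intron of CLMP, chr11:122989475-122989541: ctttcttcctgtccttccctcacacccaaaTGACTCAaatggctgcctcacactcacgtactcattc
JUN-only, 8512 bp from KNG1, chr3:186470885-186470951: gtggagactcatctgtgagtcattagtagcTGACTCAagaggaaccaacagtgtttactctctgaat
FOSL1-only, promoter of ARRDC4, chr15:98503784-98503850: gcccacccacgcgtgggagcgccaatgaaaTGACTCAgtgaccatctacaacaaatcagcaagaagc
FOSL1-only, 28531 bp from ETS2, chr21:40225455-40225521: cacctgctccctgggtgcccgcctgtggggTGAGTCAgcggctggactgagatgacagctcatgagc
JUN-only CRE, 2827 bp from ADAM8, chr10:135072845-135072912: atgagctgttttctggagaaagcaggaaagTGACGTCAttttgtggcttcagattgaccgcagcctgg
JUN-only CRE, in an intron of RNFT2, chr12:117257392-117257459: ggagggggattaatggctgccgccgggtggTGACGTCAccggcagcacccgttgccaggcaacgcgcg

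The regions behind these sites differed in rank between the classes. The JUN scores were 7149, 5497 and 5364 for the regions in both and 1413, 1367 and 1352 for the JUN-only regions. The FOSL1 scores of the FOSL1-only regions were 163 and 139. All 6 JUN regions, in both and JUN-only, overlapped H3K27ac and a JUN region after siFOXA2. Neither of the FOSL1-only regions overlapped JUN after siFOXA2, but that class was defined by having no JUN region in control cells.

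JUN regions far outnumbered FOSL1 regions, and most FOSL1 regions lay on JUN regions. A FOSL1 region was met by 9.24% of JUN regions (8.87 to 9.61%), and a JUN region by 63.3% of FOSL1 regions (61.7 to 64.9%). The unequal length of the lists limits the first share. When JUN was cut to its 3448 highest-scoring regions (score of at least 357), 33.9% of them overlapped FOSL1 (32.4 to 35.5%), against 4.99% of the other JUN regions (4.70 to 5.30%). In that equal-number comparison, 34.0% of FOSL1 regions met a JUN region (32.4 to 35.6%).

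Overlap with FOSL1 was concentrated at the top of the JUN list. It stayed between 3.36% and 4.68% in the 7 lowest deciles of JUN score. It was 7.87% in the eighth decile and 14% in the ninth, and reached 42.1% in the highest (40.1 to 44.1%). Even there, 1361 of 2350 JUN regions carried no FOSL1 call. The FOSL1 list had a different shape: the share on JUN rose from 15.7% in the lowest decile (12.2 to 19.9%) to 85.5% in the eighth (81.4 to 88.8%), and was 82.0% in the highest (77.6 to 85.7%).

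**Figure D1:**
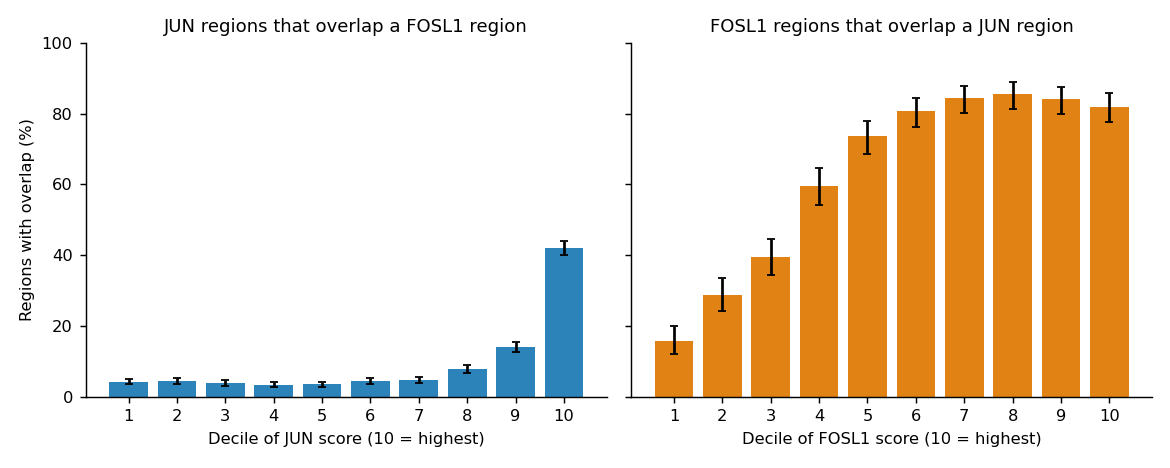
Share of JUN regions that overlap a FOSL1 region (left) and of FOSL1 regions that overlap a JUN region (right) in control PC3 cells, by decile of the region's own score. Bars are percentages and lines are Wilson 95% intervals. The left bars stay under 8% up to the eighth decile and reach 42.1% in the tenth, and the right bars level off above 80% from the sixth.

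Where both factors were called, their regions lay almost on top of each other. In 2173 pairs of overlapping regions the centres were a median of 24 bp apart (quartiles 10 and 49 bp), and in 90.2% of pairs within 100 bp. The pairs were chosen by overlap, which itself limits how far apart the centres can lie. The JUN region was the wider in 91.2% of pairs. Across the pairs the JUN and FOSL1 scores had a Spearman correlation of 0.38 (n = 2173), a description over sites of the same cells that share accessibility and sequence. The median JUN score was 391 in both (quartiles 175 and 710.5) and 139 in JUN-only (82 and 234). The median FOSL1 score was 91 in both (59 and 138) and 39 in FOSL1-only (26 and 67). Thus each factor's list was stronger where the other factor was called as well. FOSL1-only was the weakest class: 834 of its 1265 regions (65.9%) scored under 50, against 387 of 2183 FOSL1 regions in both (17.7%).

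The AP-1 motif separated FOSL1-only from the other classes. Within 100 bp of the centre, 1219 of 2171 JUN regions in both held it (56.1%, 54.1 to 58.2%) and 10594 of 21333 JUN-only regions (49.7%, 49.0 to 50.3%). In FOSL1-only 86 of 1265 regions did (6.80%, 5.54 to 8.32%). Windows of the same size 2 kb away held it in 2.79%, 3.38% and 2.21% of cases. Accessible PC3 regions with neither factor held it in 13.9% (26015 of 187208). The FOSL1-only share was therefore above its own flanks but below that of accessible chromatin at large, and it moved to 4.27% and 10.8% with windows of 50 and 250 bp. Both exceeded JUN-only by 6.49 points (4.29 to 8.67), but this difference was -15.5 points when standardised over deciles of JUN score and -1.54 with shared places kept. At least 2 AP-1 motifs were found in 17.8% of the regions in both (16.2 to 19.4%), 6.89% of JUN-only (6.56 to 7.24%) and 0.711% of FOSL1-only (0.375 to 1.35%).

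**Figure D2:**
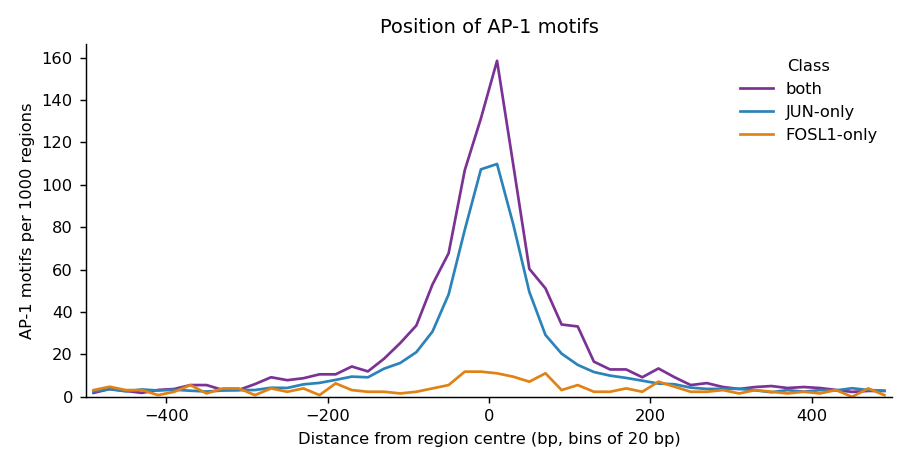
Number of AP-1 motifs per 1000 regions in bins of 20 bp around the region centre, for regions in both lists, JUN-only and FOSL1-only. The curve peaks at the centre at 158 for both and 110 for JUN-only, and FOSL1-only stays at or under 11.9.

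Motifs of other factors were searched in the same windows. The CRE motif was rare, with 18 regions in both (0.829%), 142 in JUN-only (0.666%) and 6 in FOSL1-only (0.474%), against 0.223% of accessible regions with neither factor. The intervals of the 3 classes overlapped each other. A forkhead motif, TGTTTAC or TATTTAC on either strand, was present in 14% of JUN-only regions (13.5 to 14.5%) and 6.49% of regions in both (5.53 to 7.61%). In windows 2 kb away it was present in 7.16% and 6.86%. The difference, both minus JUN-only, was -7.50 percentage points (-8.57 to -6.29), with both the lower on 22 of 23 chromosomes. It was -9.59 points when standardised over deciles of JUN score and -4.51 within the highest decile (-6.98 to -1.97). The median share of G and C bases in these windows was 46.3% in both and 42.3% in JUN-only, and its part was not tested. FOSL1-only held the forkhead motif in 3.08% (2.26 to 4.19%), below its flanks at 8.30%. A TEAD motif, ACATTCC or GCATTCC, was found in 9.95% of both, 8.79% of JUN-only and 6.56% of FOSL1-only, and the first pair differed by 1.16 points with an interval that included 0 (-0.0953 to 2.54).

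Nearly all JUN regions were accessible, and FOSL1-only regions often were not. ATAC regions overlapped 92.7% of both (91.5 to 93.7%), 96.3% of JUN-only (96.1 to 96.6%) and 51.3% of FOSL1-only (48.6 to 54.1%). Where ATAC was present, its median score was 2129.5 in both, 931.5 in JUN-only and 244 in FOSL1-only. H3K27ac covered 85.4% of both (83.9 to 86.9%), 76.1% of JUN-only (75.5 to 76.7%) and 27.9% of FOSL1-only (25.5 to 30.4%). The share of both was taken on JUN regions (median width 384 bp), which are wider than its FOSL1 regions (257 bp). On its FOSL1 regions it was 78.7%, which is 50.8 points above FOSL1-only, or 33.5 when standardised over deciles of FOSL1 score. Both exceeded JUN-only in H3K27ac by 9.33 points (7.69 to 10.9) and fell short of it in accessibility (-3.64 points, -4.84 to -2.59). Standardised over JUN score deciles the H3K27ac difference turned to -3.54 points. With scores of at least 50 in both lists, 78.4% of FOSL1-only regions (now without a JUN region of that score) were accessible. The ATAC and H3K27ac samples are labelled vehicle, whereas the names of their files carry a control siRNA, so which control treatment they had is uncertain.

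**Figure D3:**
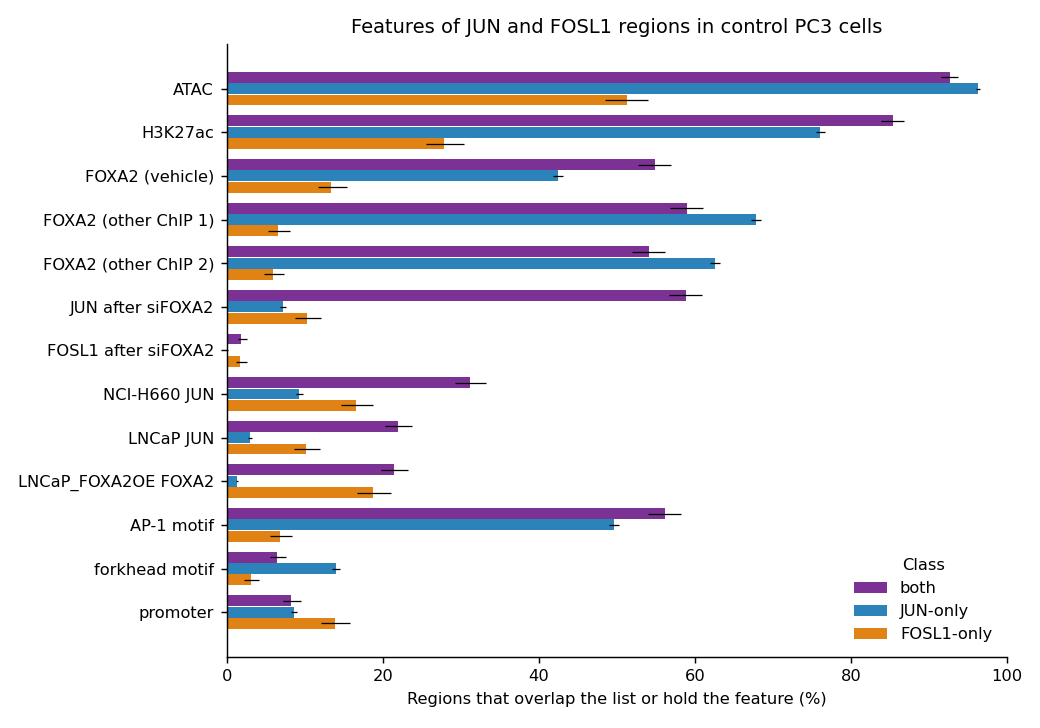
Share of regions in both (JUN regions), JUN-only and FOSL1-only that overlap each further list or hold each motif, in percent. Lines are Wilson 95% intervals. FOSL1-only is lowest for ATAC, H3K27ac and the AP-1 motif, and JUN after siFOXA2 meets 58.8% of both against 7.23% of JUN-only.

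FOXA2 gave opposite orders with different ChIPs. The vehicle FOXA2 list overlapped 54.9% of both (52.8 to 56.9%) and 42.5% of JUN-only (41.8 to 43.1%). The other FOXA2 ChIPs overlapped 59.0% and 54.1% of both but 67.8% and 62.6% of JUN-only. The differences, both minus JUN-only, were 12.4 points (10.2 to 14.6) with the vehicle list and -8.88 (-11.1 to -6.73) and -8.51 points (-10.7 to -6.33) with the others. At equal number the vehicle list gave -0.302 points (-3.80 to 3.18). No direction for FOXA2 between these classes can therefore be given. FOSL1-only had the lowest overlap with each of these lists, 13.4%, 6.56% and 5.93%.

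The share of regions with a JUN call after FOXA2 silencing differed between both and JUN-only. A JUN region of siFOXA2 cells overlapped 1277 of 2171 regions in both (58.8%, 56.7 to 60.9%) and 1542 of 21333 JUN-only regions (7.23%, 6.89 to 7.58%). The difference was 51.6 points (49.5 to 53.7), and both was the higher on 23 of 23 chromosomes. The siFOXA2 JUN list held 4081 regions, and JUN score moves with the class. From the lowest to the ninth decile of JUN score the share went from 1.95% to 18.1% in JUN-only. In both it was 37.4% in the lowest decile and 43.8% in the ninth. Without regions that met the LNCaP_FOXA2OE FOXA2 list, both also rose, from 5.56% (2 of 36) to 38.9%. JUN-only then went from 0.698% to 18.1%. The part of list length in the difference was not tested. Within the highest decile of JUN score the shares were 76.6% and 42.8%, a difference of 33.9 points (30.1 to 37.5). The classes still differed in score inside that decile, with a median of 741 in both and 556 in JUN-only. Among regions with an AP-1 motif the shares were 57.5% of both and 8.39% of JUN-only. The siFOXA2 FOSL1 list held only 1538 regions. It overlapped 41 of the 2171 regions in both (1.89%) and 22 of the 1265 FOSL1-only regions (1.74%). With so short a list of unknown depth, these shares do not show a loss of FOSL1 binding and cannot be set beside those of JUN.

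Sites called in both lists were not alike along the JUN score. In the lowest decile 5.05% of regions in both held an AP-1 motif (5 of 99), against 21.3% of JUN-only (479 of 2252). In the seventh decile the shares were 40.9% and 58.2%. The order turned in the ninth, with 68.1% and 61.9%. In the highest decile the shares were 75.6% and 62.7% (difference 12.96 points, 9.20 to 16.6), but score still differed between the classes there. The low-scoring regions in both often recurred elsewhere: the LNCaP_FOXA2OE FOXA2 list met 63.6% of them in the lowest decile, and 4.15% in the highest, whereas in JUN-only it met at most 4.53% in any decile.

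**Figure D4:**
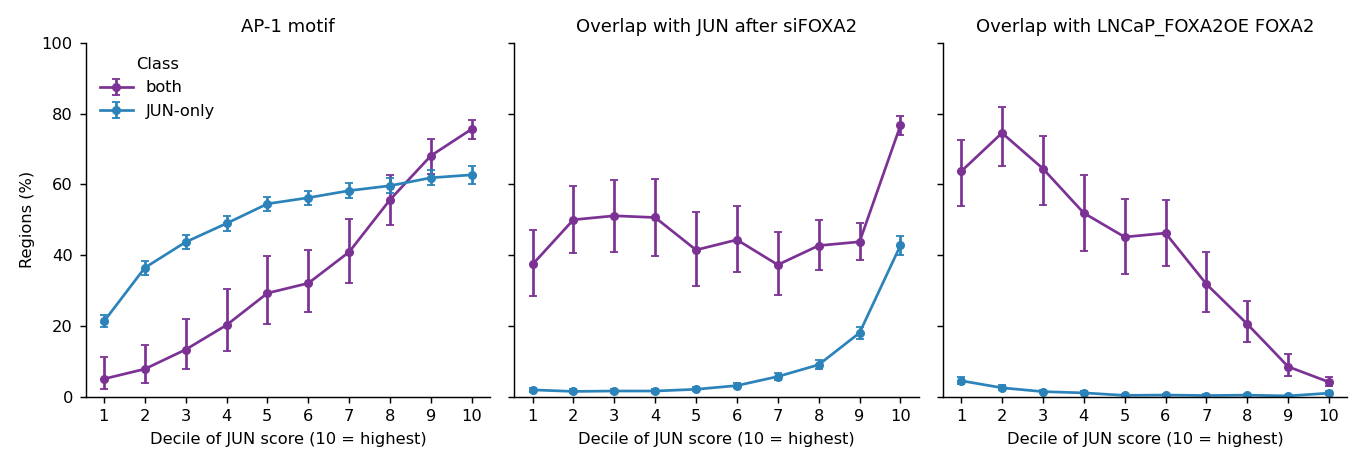
Share of JUN regions with an AP-1 motif (left), of those that overlap JUN after siFOXA2 (middle) and of those that overlap the LNCaP_FOXA2OE FOXA2 list (right), by decile of JUN score, for both and JUN-only. Points are percentages and lines Wilson 95% intervals, and regions that met the LNCaP_FOXA2OE FOXA2 list are counted in all panels. The AP-1 curves cross between the eighth and the ninth decile, the JUN siFOXA2 curves stay apart throughout, and the right curve of both falls from 74.5% in the second decile to 4.15% in the tenth.

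The 466 regions in both that met the LNCaP_FOXA2OE FOXA2 list stood apart. That list holds exactly 2500 regions and no score, and whether it is a full list is not known. An AP-1 motif was present in 5 of them (1.07%) and a forkhead motif in 4 (0.858%), against 1.72% and 6.55% of their flanks. JUN regions of NCI-H660 overlapped 70.2% of them, JUN regions of LNCaP 71.5% and JUN of siFOXA2 PC3 cells 79.0%, and 85.4% lay in at least 10 lists. The vehicle FOXA2 list met 87.8% of them and the other FOXA2 ChIPs 8.80% and 9.44%. Among the other 1705 regions in both, 71.2% held an AP-1 motif, 99.2% were accessible, 93.0% carried H3K27ac and 53.3% met JUN after siFOXA2. Without such regions in either class, both exceeded JUN-only in the AP-1 motif by 20.9 points (18.6 to 23.1) and in accessibility by 2.35 points (1.76 to 2.75). When these differences were also standardised over deciles of JUN score, they came to 0.16 and -0.49 points. The difference in FOXA2 shrank to 3.53 points (1.09 to 5.995) with the vehicle list and was 4.16 points (1.904 to 6.31) and 3.13 points (0.765 to 5.43) with the others, but all 3 turned negative when standardised (-12.5, -14.4 and -17.8 points). JUN after siFOXA2 stayed higher in both, by 46.5 points (44.1 to 48.9) and by 12.97 when standardised. This split was made after the values were seen, and its part in the results was not tested otherwise.

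In other lines, JUN occupied sites of both more often than JUN-only sites. NCI-H660 JUN met 31.2% of both (29.3 to 33.2%), 9.33% of JUN-only (8.95 to 9.73%) and 16.6% of FOSL1-only (14.7 to 18.8%). LNCaP JUN met 22%, 2.96% and 10.1%. Without the regions that met the LNCaP_FOXA2OE FOXA2 list, the shares in both were 20.6% for NCI-H660 and 8.45% for LNCaP, against 8.88% and 2.64% in JUN-only.

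FOSL1-only was itself a mixture. Of its regions, 649 were accessible and 616 were not. The accessible ones held an AP-1 motif in 10.6% (69 regions) and the others in 2.76% (17 regions), the latter close to their flanks (2.35%). Promoters, within 1 kb of the start of a protein-coding transcript, made up 26.5% of the accessible regions and 0.487% of the others. Of the 175 FOSL1-only promoter regions, 172 were accessible and 150 carried H3K27ac, and 6 held an AP-1 motif. A JUN region lay within 1 kb of 61 FOSL1-only regions (4.82%), and the median distance to the nearest JUN region was 34008 bp. The LNCaP_FOXA2OE FOXA2 list met 238 of the 1265 regions (18.8%), of which 5 held an AP-1 motif. The highest FOSL1 score decile, both classes together, showed the same list in 43.9% of its regions and an AP-1 motif in 36.3%, below the 58.3% of the seventh decile.

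Most regions of each class were distal. Promoters made up 8.25% of both (7.16 to 9.48%), 8.58% of JUN-only (8.21 to 8.96%) and 13.8% of FOSL1-only (12.04 to 15.8%). The difference between both and JUN-only was within counting error (-0.333 points, -1.48 to 0.953), and its sign changed with other settings. Introns held 35.2%, 40.9% and 27.8%, and intergenic DNA 54.0%, 46.9% and 57.1%. The median distance to the nearest start was 47330 bp for both, 41111 bp for JUN-only and 75936 bp for FOSL1-only.

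**Figure D5:**
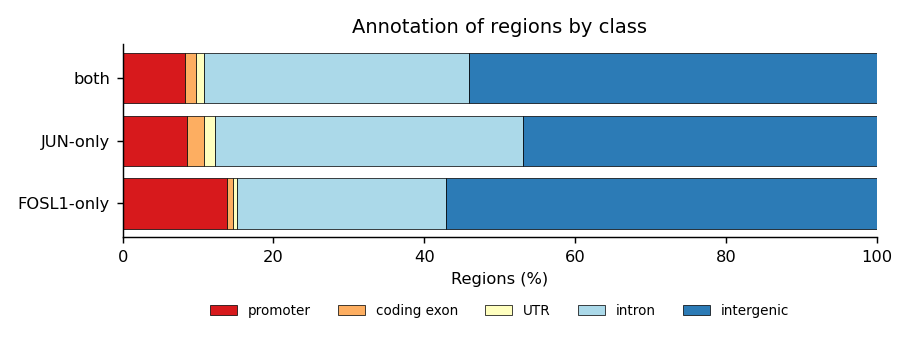
Annotation of regions in both (JUN regions), JUN-only and FOSL1-only, as percentages of each class that add to the whole, from GENCODE protein-coding genes. Intergenic DNA and introns make up most of each bar, and the promoter part is 13.8% in FOSL1-only against 8.25% and 8.58%.

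The strongest regions of both clustered at a pair of genes on chromosome 10. By the sum of ranks in the lists (chromosome 8 left out), the first 2 lay near and at a promoter of NRP1, which encodes a co-receptor for semaphorins and VEGF. They were chr10:33422918-33423412 (JUN score 7149, FOSL1 score 1232) and chr10:33552997-33553655 (5497 and 688). The next 2 lay in introns of KCNMA1, the pore-forming subunit of a calcium-activated potassium channel, at chr10:79110393-79110829 (5364 and 665) and chr10:78923696-78924111 (6009 and 600). The fifth was in an intron of GULP1, at chr2:189163706-189164114 (2731 and 522). All 5 were accessible, carried H3K27ac and met JUN after siFOXA2, and they lay in 8 to 14 lists.

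The 5 strongest JUN-only regions scored lower and lacked the AP-1 motif, which the GULP1 region in both lacked as well. In the whole highest decile of JUN score, 62.7% of JUN-only regions held it. The first 3 lay in introns of ZMIZ1 (chr10:80917251-80917704, score 2262), PLCH2 (chr1:2383102-2383573, 2027) and CTNNA3 (chr10:68109465-68109925, 1695). The fourth was intergenic and 386421 bp from ANKRD30A (chr10:37027658-37028105, 1610), and the fifth in an intron of KCNMA1 (chr10:79146542-79147003, 1529). All 5 met ATAC, H3K27ac, the vehicle FOXA2 list and the first of the other FOXA2 ChIPs, and 3 met JUN after siFOXA2. ZMIZ1 encodes a transcriptional co-regulator and CTNNA3 an alpha-catenin of cell junctions.

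The strongest FOSL1-only regions held no AP-1 motif either. The first 3 were not accessible but overlapped H3K27ac: in an intron of TAF4B (chr18:23841144-23841359, score 1977), 143639 bp from C1orf87 (chr1:60683081-60683296, 1403) and in an intron of PDGFD (chr11:104010491-104010708, 1039). The fourth (chr10:98561330-98561545, 928, 30466 bp from LCOR) lay in 13 lists and the fifth (chrX:61717808-61718054, 895, 849053 bp from SPIN4) in 16, just under the limit of removal. None of the first 4 met JUN after siFOXA2, in a class defined by having no JUN region in control cells.

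Counting regions by their nearest gene gave partly the same names. These counts were not set against gene length or the spacing of genes. For the genes of both, the median distance to the start ran from 29400 bp (NRP1) to 823918 bp (SPIN4). KCNMA1 was nearest to most regions in both (12), followed by SPIN4 (11), MYC (10), ANKRD30A and RP11-685N3.1 (9 each), CWH43 (8), and FAM72B, HGSNAT, NRP1 and SOX9 (7 each). An AP-1 motif was present in 9 of the 12 KCNMA1 regions, 6 of the 7 NRP1 regions and 5 of the 7 SOX9 regions, and none of these met the LNCaP_FOXA2OE FOXA2 list. SPIN4, CWH43, FAM72B and HGSNAT were the reverse, with no AP-1 motif in any of their regions and that list in 9 of 11, 8 of 8, 6 of 7 and 7 of 7. SOX9 is a transcription factor of progenitor cells and MYC a driver of growth.

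JUN-only regions most often had as nearest gene NAALADL2 (39), TRPS1 (38), PCDH15 (34), ADGRL3 (32), MYC (31), CSMD3 (30), HAS2, LRFN5 and SOX9 (29 each) and CADM2 (28). Most of these regions were far from the start: the median distance ran from 135834 bp (PCDH15) to 543857 bp (LRFN5), with 514244 bp for MYC. HAS2 makes hyaluronan, and TRPS1 is a GATA-type repressor. FOSL1-only regions most often had as nearest gene TPTE (20), PPIAL4G (13), CSMD3, CWH43 and LRRTM3 (12 each), PCDH15 (11), RP11-685N3.1 (10), and ADK, ANKRD30BL and GOLGA6L6 (8 each). Of the 20 TPTE regions none held an AP-1 motif, and their median distance to the gene's start was 832286 bp. For PPIAL4G it was 843482 bp, and the lowest among these genes was 54178 bp (ADK).

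Gene lists were then read against all protein-coding genes, counting a gene when a region lay in its body or within 50 kb. Of 20176 genes, 11.4% had a region in both, 60.2% a JUN-only region and 6.43% a FOSL1-only region. The median gene had 0, 1 and 0 such regions. A JUN-only region was near 16 of 18 AP-1 subunits and close relatives, 16 of 16 protease and adhesion genes that respond to AP-1, 13 of 14 growth factor and cytokine genes, and 15 of 17 genes of the YAP and TEAD pathway. The median number of JUN-only regions per gene was 2, 2.5, 2.5 and 3. The first 3 lists hold shorter genes than the whole (medians 10.9, 12.4 and 13.5 kb against 27.2 kb), and the YAP and TEAD genes are longer (42.5 kb).

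A region in both was near fewer genes of each list. It was found at 4 of the 18 AP-1 genes (22.2%), 5 of the 16 protease and adhesion genes (31.2%), 4 of the 14 growth factors and cytokines (28.6%) and 3 of the 17 YAP and TEAD genes (17.6%). FOSL1-only regions were near 2 of the 18 AP-1 genes (JUN and JUND) and near 0 genes of the next 3 lists. Of 10 genes that the study had tested in PC3, 5 had a region in both, 9 a JUN-only region and 3 a FOSL1-only region (NDC80, TP63 and CDK1). The study chose those genes in this cell line, so their counts are not independent evidence.

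Among the AP-1 genes the both class included FOSL1 itself, with 3 regions. A region 15.3 kb from the nearest start was the strongest (chr11:65683153-65683544, JUN score 1844, FOSL1 score 199), with 2 AP-1 motifs and a JUN call after siFOXA2. The other 2 were at the promoter, with JUN scores of 546 and 116 and FOSL1 scores of 138 and 122, and neither was called after siFOXA2. A call does not give the level of binding. The study reported that FOXA2 silencing lowered JUN binding at an enhancer upstream of FOSL1, and whether its site is one of these regions is not known. None of the 3 met FOXA2 in the vehicle list or in the first of the other FOXA2 ChIPs. ATF3, a stress-induced bZIP factor, had 2 regions, at the promoter (321 and 63) and 6.3 kb away (720 and 113). FOSL2 had 1 at its promoter (458 and 78) and JUN 1 at 56.5 kb from its start (471 and 91).

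PLAU, which encodes the urokinase plasminogen activator, had the most regions in both of any listed gene, 5, beside 5 JUN-only regions. Their JUN scores were 349, 821, 745, 1323 and 1674 and their FOSL1 scores 86, 261, 127, 154 and 164, in genomic order. The region at the promoter (chr10:75668757-75669272, 1323 and 154) held no AP-1 motif, and 3 of the 5, this one included, met JUN after siFOXA2. CD44, ITGA6 and MMP13 had 1 each (1118 and 73, 781 and 154, 304 and 40), the last at the promoter of this collagenase gene.

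EGFR, the epidermal growth factor receptor, led the growth factor list with 3 regions in both. The strongest was intronic (chr7:55200430-55200942, JUN score 1270, FOSL1 score 132) and was the only one of the 3 called after siFOXA2. HMGA1, HMGA2 and PTHLH had 1 region each (1100 and 86, 439 and 70, 703 and 114). In the YAP and TEAD list CCN1, CRIM1 and NT5E had 1 each (599 and 101, 507 and 102, 400 and 63). Of the genes the study tested, WNT7A had 2 regions in both (806 and 142, 783 and 108), and NDC80 and TP63 1 each (626 and 73, 479 and 45).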

How the data were processed

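Regions of 22 samples were taken as deposited. The authors crosslinked cells, built ChIP-seq libraries with a ThruPLEX kit, aligned reads to hg19 with bwa (0.7.17-r1188, aln and sampe), converted them with samtools (1.9) and called regions with MACS2 (2.1.4). MACS2 settings, control libraries and pooling were not given in the sources used here. In 20 lists the authors deposited a whole-number score (minimum 13 for JUN and FOSL1), taken to be 10 times the −log10 of a q-value, which is an inference. The other 2 lists held coordinates only, a further unit not used as values. The depth is unknown.

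Overlap was taken against the whole other list and shared places were removed from the counted regions. Both strands of the GRCh37 reference were searched for motifs up to 100 bp from each centre, whose chromosome names and lengths match the lists. Annotation was GENCODE 44 in its version for GRCh37, with protein-coding genes only. Differences were also standardised over 10 deciles of JUN score, or of FOSL1 score where FOSL1 regions were compared. Scripts used python 3.11.15, pandas 2.3.3, pysam 0.24.0 and samtools 1.23.1 and were tested on simulated lists. Up to 6 genes per list were named, those with most regions in both, and per class the 10 genes nearest to most regions and the 5 highest-scoring regions outside chromosome 8. Sequences came from no region of that chromosome. JUND and CDK1 fall outside this rule and were named after their values were seen. The classes, gene lists and rules were chosen with earlier results of these data known. No per-sample column was left unmapped. A few genes and 1 sequence that these rules select are not reported here.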

Additional observations from a re-analysis of the deposited data

How the results depend on the processing

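Among 69 recomputed values, 24 stayed within the 95% interval of the reported value, 31 moved outside it and 14 changed sign, and the cause was not tested. Requiring 50% overlap of the shorter region changed none beyond its interval. With shared places kept, the shares of overlap were 10.7% (JUN) and 66.9% (FOSL1). Both minus JUN-only was -1.54 points for the AP-1 motif, 11.1 for H3K27ac, 19.0 for FOXA2 and 57.3 for JUN kept. Here JUN kept means that a JUN region was called there after siFOXA2. With scores of at least 50 in both lists, the shares were 8.19% and 78.0%. FOSL1-only (now without a JUN region of that score) was accessible in 78.4%. The differences were 0.460 points for promoters and 55.9 for JUN kept. At equal number the shares were 33.9% and 34.0%, FOSL1-only (now without a top JUN region) held the motif in 19.3% and was accessible in 66.7%, and the differences were 10.8 points (AP-1), -0.968 (accessible), 4.07 (H3K27ac), -0.302 (FOXA2), 0.0450 (promoter) and 37.7 (JUN kept). Standardised over JUN score deciles they were -15.5 points (AP-1), -10.9 (accessible), -3.54 (H3K27ac), 1.66 (promoter) and 38.8 (JUN kept). Motif windows of 50 and 250 bp gave 4.27% and 10.8% in FOSL1-only. The other FOXA2 ChIPs gave -8.88 and -8.51 points, and promoters of 500 bp 0.338. Removing regions that met the LNCaP_FOXA2OE FOXA2 list, an alternative chosen after seeing the data, gave 7.49% of JUN on FOSL1 and 48.0% accessible FOSL1-only. The differences were then 20.9 points (AP-1), 2.35 (accessible), 16.2 (H3K27ac), 3.53 (FOXA2), 1.65 (promoter) and 46.5 (JUN kept). With this removal and standardisation together, also chosen after seeing the data, they were 0.16 points (AP-1), -0.49 (accessible), 7.17 (H3K27ac), -12.5 (FOXA2), 11.9 (promoter) and 12.97 (JUN kept). The share with a JUN call after siFOXA2 was higher in both than in JUN-only under each of these settings. No paired analysis was possible because each factor had 1 list.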

Other observations

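The overlap of JUN and FOSL1 calls, not adjusted for score, varied between chromosomes. The share of JUN regions that met FOSL1 was highest on chromosome 20 (15.8%, 13.05 to 19.0%), followed by chromosomes 10 (12.5%, 10.9 to 14.4%), 8 (12.3%, 10.7 to 14.01%) and 17 (11.7%, 9.64 to 14.2%). It was lowest on chromosomes 13 (5.43%, 3.78 to 7.73%) and 22 (5.74%, 3.31 to 9.77%). Chromosomes 8 and 10 also took a larger part of the FOSL1 list (9.92% and 9.08%) than of the JUN list (6.52% and 5.63%). Copy number was not measured in these files and its part was not tested.

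Accessible chromatin of NCI-H660 met 34.2% of the regions in both (32.3 to 36.2%), 22.5% of JUN-only (21.9 to 23.0%) and 25.3% of FOSL1-only (23.0 to 27.8%), and of the 175 FOSL1-only promoter regions it met 161. JUN of NCI-H660 met 60 of these 175 regions (34.3%) although JUN of control PC3 cells met none, which is how the class was defined. The 785 JUN-only regions outside accessible chromatin held an AP-1 motif in 28.3%, against 2.42% in their flanks and 2.76% in the FOSL1-only regions outside accessible chromatin.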
